A study of Homo sapiens with 72 samples.

Results

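The genes described here are 31 genes of sterol and fatty acid synthesis that are known targets or regulators of the sterol regulatory element-binding proteins (SREBPs), out of 60279 genes in the files. They are listed by name from what is known of the pathway. The list uses no measured value but was drawn up with earlier results of these data known. The genes fall into 7 genes of the mevalonate pathway, 11 genes from squalene to cholesterol, 4 SREBPs and SREBP regulators, 1 sterol carrier and 8 genes of fatty acid and glycerolipid synthesis. All 31 passed the filter on low counts in every comparison below.

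SREBPs are transcription factors that are made as membrane proteins of the endoplasmic reticulum. When sterols are scarce the escort protein SCAP carries them to the Golgi apparatus, where proteases free the active part, and when sterols are plentiful INSIG proteins hold SCAP back. INSIG1, SREBF2 and most enzymes of cholesterol synthesis are themselves SREBP targets, and in growing cells insulin and AKT signalling is known to raise SREBP activity towards fatty acid synthesis.

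RNA was measured in 72 wells of U2OS cells, a human osteosarcoma cell line, by bulk RNA-seq of polyadenylated RNA with a stranded kit. In the vehicle group, 18 wells received DMSO for 12 h. The other 54 wells received 1 of 6 compounds for 12 h at 100, 1000 or 10000 nM, with 3 wells for each compound and dose. The compounds were triptolide (a transcription inhibitor), homoharringtonine (a translation inhibitor), pyrazolanthrone (a kinase inhibitor directed at JNK), nilotinib (a tyrosine kinase inhibitor directed at BCR-ABL), miglitol (an inhibitor of intestinal sugar-digesting enzymes) and MK-2206 (an allosteric AKT inhibitor). All groups are the same 1 cell line with no genetic change, and the labels do not say whether wells of a group were separate cultures, so p-values measure only the spread between wells.

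The libraries held between 70414 and 68270780 counts, with a median of 38316802, and 3 of 72 fell under 10000000: DMSO replicate 10 (458921 counts), triptolide 100 nM replicate 2 (70414 counts) and triptolide 1000 nM replicate 1 (9520374 counts). Of the bone lineage markers, COL1A1 (mean 1825 CPM in DMSO wells, where CPM are the counts of a gene in every 1000000 counts), SPARC (1375 CPM) and RUNX2 (7.78 CPM) were present, while COL1A2 (0.132 CPM), BGLAP (0.202 CPM) and SP7 (0.0146 CPM) were near 0. The blood cell marker PTPRC (0.085 CPM) and the liver marker ALB (0.00509 CPM) were also near 0. A property that varied from well to well was how counts depended on base composition. It is given here as the GC slope of a library, the change in log2(CPM + 1) for each rise of 10 percentage points in the GC content of a gene's transcripts, and it ran from -0.41 to 0.33 over the DMSO wells.

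Promoter sequences of the members are shown for the gene with a full-length match to the sterol regulatory element, for the others with a shorter match, and for INSIG1, the member that moved most under MK-2206. RefSeq windows of 250 bases upstream to 50 downstream of a start (GRCh38.p14) were present for 27 of 31 members. Each stretch below is the longest run of the 250 upstream bases that lies in no exon of a protein-coding gene. The MVK stretch begins after exon bases of its window and lies inside the annotated span of MVK. Capitals mark matches on either strand to TCACNCCAC (the sterol regulatory element core), to its shorter form TCACNCCA or to CCAAT (the NF-Y box, which reads ATTGG on the other strand). The stretches lie on the plus strand, the strand of each gene, at chr22:41832855-41833104 for SREBF2, chr12:109573581-109573792 for MVK, chr4:165327419-165327666 for MSMO1 and chr7:155297628-155297775 for INSIG1.
SREBF2: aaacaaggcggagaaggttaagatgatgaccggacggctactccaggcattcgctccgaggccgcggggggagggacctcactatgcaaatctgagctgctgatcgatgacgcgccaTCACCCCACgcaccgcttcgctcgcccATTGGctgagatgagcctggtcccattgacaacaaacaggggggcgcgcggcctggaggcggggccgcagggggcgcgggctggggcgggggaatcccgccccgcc
MVK: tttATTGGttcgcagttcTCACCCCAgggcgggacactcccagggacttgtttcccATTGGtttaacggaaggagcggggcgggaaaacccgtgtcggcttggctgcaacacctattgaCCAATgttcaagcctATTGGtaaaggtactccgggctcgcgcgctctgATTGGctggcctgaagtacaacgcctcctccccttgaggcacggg
MSMO1: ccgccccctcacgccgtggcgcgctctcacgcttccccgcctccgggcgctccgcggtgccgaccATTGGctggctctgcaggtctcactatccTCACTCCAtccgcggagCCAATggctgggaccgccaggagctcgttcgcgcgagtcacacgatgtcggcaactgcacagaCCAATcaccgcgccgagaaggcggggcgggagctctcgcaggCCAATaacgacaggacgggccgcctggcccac
INSIG1: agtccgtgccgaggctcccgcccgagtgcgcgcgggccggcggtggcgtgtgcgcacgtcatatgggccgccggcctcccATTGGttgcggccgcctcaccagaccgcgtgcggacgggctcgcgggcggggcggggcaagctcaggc

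TCACNCCAC was found in the window of 1 of 27 members (3.7%), SREBF2, beside 1.39% of the 27305 genes with a window. The shorter TCACNCCA, which lies within it, was found in 3 of 27 members (11.1%) beside 4.8% of all genes. CCAAT was found in 20 members (74.1%) beside 39.7% of all genes and 43.1% of the 10616 genes with at least 1 CPM in DMSO wells. GGGCGG, the Sp1 box, was found in 26 members (96.3%) beside 48.3% of all genes and 77.4% of the expressed ones. These are matches of letters on both strands and were not tested.

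In DMSO wells the members spanned a wide range of levels per transcript length, given as TPM, the transcripts of a gene in every 1000000 transcripts. FASN, the fatty acid synthase, was highest with a median of 272 TPM (range 173.9 to 317.5, n = 18). FDPS, which makes farnesyl diphosphate, followed at 209 TPM and ACLY, which makes cytosolic acetyl-CoA from citrate, at 193.5 TPM (range 163.5 to 328). The ranges of these neighbours in the order overlapped. INSIG1 (8.90 TPM), HSD17B7, a ketosteroid reductase of cholesterol synthesis (8.72 TPM), and TM7SF2, a sterol reductase (3.10 TPM), were lowest.

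The levels below are CPM normalised by the trimmed mean of M values (TMM), so a change is relative to the bulk of expressed genes, and in bulk RNA fewer cells of a kind and less RNA per cell cannot be told apart. Fold changes are given on the log2 scale with their standard error (SE) and the Benjamini-Hochberg adjusted p over all genes tested by edgeR's quasi-likelihood test, and a gene was called when this p was under 0.05. Shares of all genes below are shares called at an adjusted p under 0.05. Members at an unadjusted p under 0.05 are also counted in places, a threshold at which all genes were not counted. The 18 comparisons with vehicle all share the same 18 DMSO wells.

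**Figure D1:**
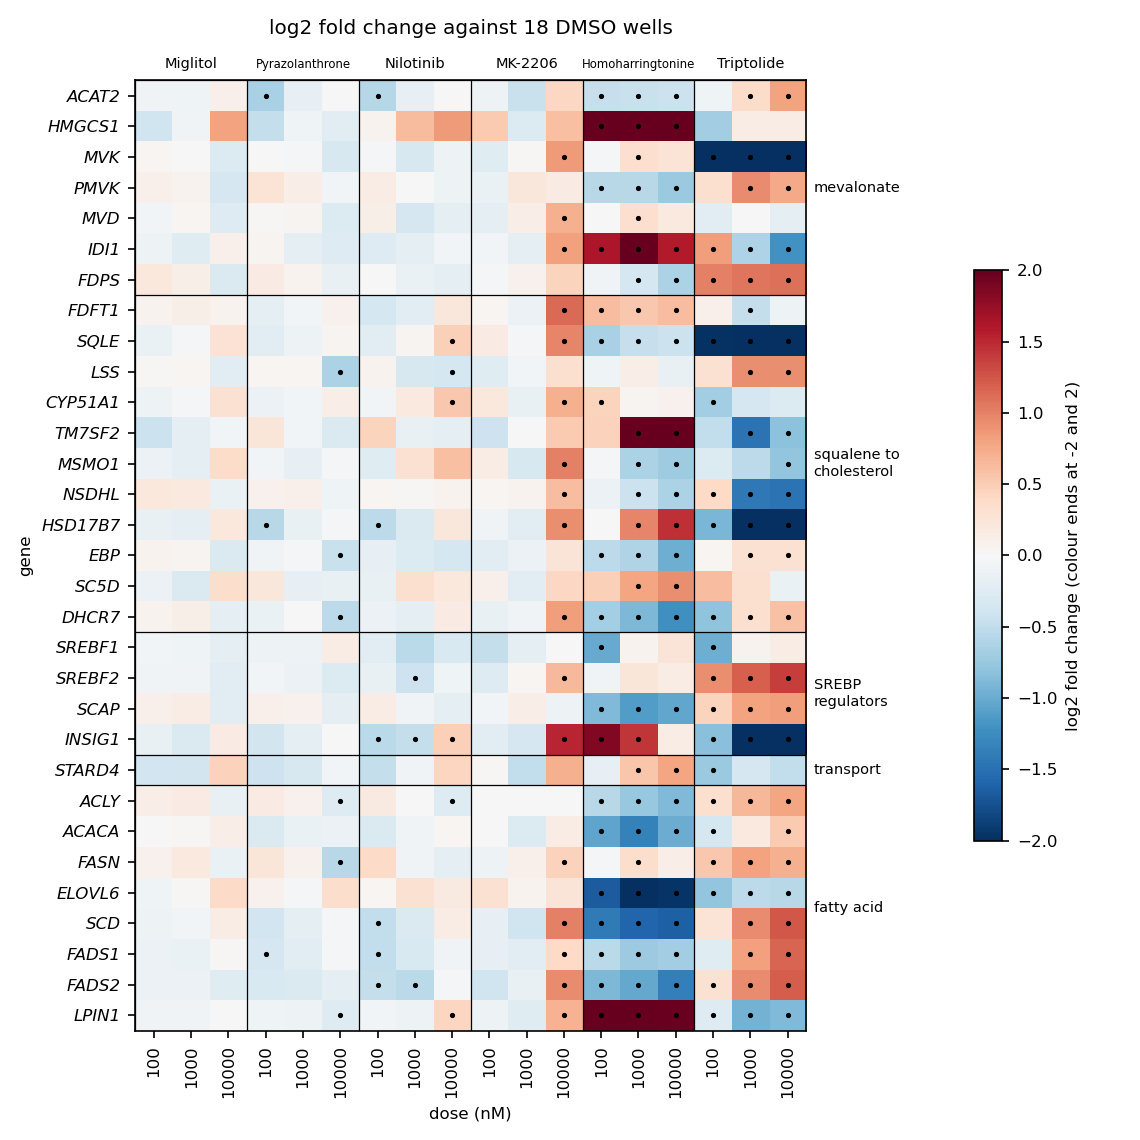
Each row is a member, each column a compound and dose in nM, and colour gives the log2 fold change against the 18 DMSO wells, with a dot where the adjusted p was under 0.05. The column for MK-2206 at 10000 nM is red in 29 of 31 rows, while the columns for miglitol carry no dot and those for homoharringtonine and triptolide hold both colours.

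MK-2206 at 10000 nM raised genes of sterol synthesis and of fatty acid desaturation together. Of the 31 members, 17 were higher and 0 lower than in DMSO, beside 2.21% of all genes tested that were called higher and 0.966% called lower. The median log2 fold change of the members was 0.61, beside -0.02 over all genes, and 29 of 31 had a positive value. For 15 of the 17 genes the 3 wells lay above every DMSO well. This describes genes already called higher from the same wells and adds no support to the calls. It was not counted over all genes. The exceptions were IDI1 and MSMO1, and for IDI1 only the shallow DMSO replicate 10 reached the treated wells.

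In the mevalonate pathway, which builds isoprene units from acetyl-CoA, 3 of 7 members rose. MVK, the kinase that phosphorylates mevalonate, was at 22.2 to 38.2 CPM in the DMSO wells (median 28.7) and at 60.7, 44.1 and 52.7 CPM in the 3 treated wells, all above the vehicle range (0.86, SE 0.13, adjusted p = 0.000259). MVD, the decarboxylase that makes isopentenyl diphosphate, went from 25.6 to 42.9 CPM in DMSO to 62.7, 49.6 and 61.3 CPM (0.71, SE 0.12, adjusted p = 0.000684), again with no overlap. IDI1, which converts isopentenyl diphosphate into its isomer, was at 22.2, 20.4 and 20.9 CPM beside a DMSO median of 11.7 and a range of 9.40 to 31.6 (0.82, SE 0.17, adjusted p = 0.00502). The single DMSO well above the treated ones was replicate 10, which holds 458921 counts in all. Without it the DMSO wells ended at 15.9 CPM. The remaining members were not called: ACAT2, the thiolase at the start of the pathway (0.42, adjusted p = 0.0799), HMGCS1, the synthase that follows it (0.60, adjusted p = 0.517), PMVK, the next kinase after MVK (0.16), and FDPS (0.45, adjusted p = 0.0533).

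From squalene to cholesterol, 7 of 11 members rose, with a median of 0.72 over the 11. FDFT1, the squalene synthase at the branch point into sterols, was at 59.7 to 134 CPM in DMSO (median 112) and at 232, 264 and 236 CPM after MK-2206 (1.14, SE 0.12, adjusted p = 8.01e-07). SQLE, the squalene epoxidase, was at 74.8 to 126 CPM in DMSO (median 89.0) and at 154, 216.5 and 171 CPM (0.97, SE 0.12, adjusted p = 1.57e-05). Neither gene's treated wells overlapped the vehicle wells. CYP51A1, the lanosterol demethylase, moved from a DMSO range of 43.4 to 78.3 CPM to 81.7, 106 and 88.3 CPM (0.72, SE 0.14, adjusted p = 0.00207), so that its lowest treated well stood close to the highest DMSO well. MSMO1, the methylsterol monooxygenase, was at 34.2, 30.1 and 29.8 CPM beside 11.4 to 32.5 CPM in DMSO, where the median was 13.7 CPM (1.01, SE 0.21, adjusted p = 0.00531). A single DMSO well, replicate 16, reached into its treated range.

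The later sterol enzymes showed narrower vehicle ranges. NSDHL, a sterol dehydrogenase, was at 63.7, 56.6 and 55.8 CPM beside 31.6 to 43.6 CPM in DMSO (0.61, SE 0.09, adjusted p = 0.00018). HSD17B7 was at 13.8, 14.1 and 12.4 CPM beside 1.76 to 8.25 CPM (0.93, SE 0.12, adjusted p = 3.69e-05), where the lowest vehicle value again came from the shallow replicate 10. DHCR7, the reductase of the last step to cholesterol, was at 157, 143.6 and 163 CPM beside 71.2 to 101 CPM (0.84, SE 0.09, adjusted p = 3.30e-06). In all 3 genes every treated well was above every DMSO well. LSS, the lanosterol synthase (0.32, adjusted p = 0.158), TM7SF2 (0.52, adjusted p = 0.293), EBP, a sterol isomerase (0.26), and SC5D, a sterol desaturase (0.41), were not called.

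Among the regulators the change was split. INSIG1, which retains SCAP in the endoplasmic reticulum, had the largest fold change of the 31 members: it was at 7.02 to 13.9 CPM in DMSO (median 11.3) and at 31.2, 33.8 and 33.3 CPM after MK-2206 (1.52, SE 0.11, adjusted p = 8.58e-09), a 2.87-fold rise. SREBF2, which encodes the SREBP of cholesterol synthesis, was at 139.5 to 195 CPM in DMSO and at 270.3, 237 and 276 CPM (0.65, SE 0.09, adjusted p = 8.29e-05). Both genes were clear of the vehicle wells. SREBF1, which encodes the SREBP isoforms linked to fatty acid synthesis, was at 89.2, 73.8 and 87.0 CPM beside 49.2 to 106 CPM in DMSO (0.00, 95% interval -0.28 to 0.29, adjusted p = 0.998). SCAP stayed inside the vehicle range as well (-0.10, adjusted p = 0.81). STARD4, a cytosolic cholesterol carrier and the only transport gene among the members, was at 27.9, 40.6 and 32.9 CPM beside 14.3 to 42.1 CPM (0.70, SE 0.21, adjusted p = 0.0659).

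In fatty acid and glycerolipid synthesis, 5 of 8 members rose, with SCD and FADS2 leading. SCD, the desaturase that makes oleic acid, was at 209 to 349 CPM in DMSO (median 268) and at 486, 609.8 and 572 CPM (1.0, SE 0.10, adjusted p = 8.04e-07). FADS2, the first desaturase of polyunsaturated fatty acid synthesis, was at 299, 251 and 292 CPM beside 107.5 to 176 CPM (0.95, SE 0.10, adjusted p = 1.47e-06), and its partner FADS1 was at 118, 148 and 139.5 CPM beside 87.8 to 117 CPM (0.40, SE 0.08, adjusted p = 0.00462). All 3 desaturases lay above every DMSO well, FADS1 by a small margin. FADS1 (chr11:61799627-61829318, minus strand) and FADS2 (chr11:61792980-61867354, plus strand, GRCh38) overlap, and the sources used here do not say whether counting used the strand, so reads of 1 may have been counted for the other.

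FASN was at 1007, 944.5 and 1168 CPM beside 537 to 864 CPM in DMSO (0.46, SE 0.11, adjusted p = 0.0174). LPIN1, a phosphatidate phosphatase of glycerolipid synthesis, was at 78.6, 92.2 and 94.8 CPM beside 42.1 to 60.1 CPM (0.70, SE 0.08, adjusted p = 2.48e-06). Both were above every vehicle well. ACLY (-0.01, 95% interval -0.15 to 0.13), ACACA, the acetyl-CoA carboxylase (0.15), and ELOVL6, a fatty acid elongase (0.25), which feed or extend the products of FASN, were not called.

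**Figure D2:**
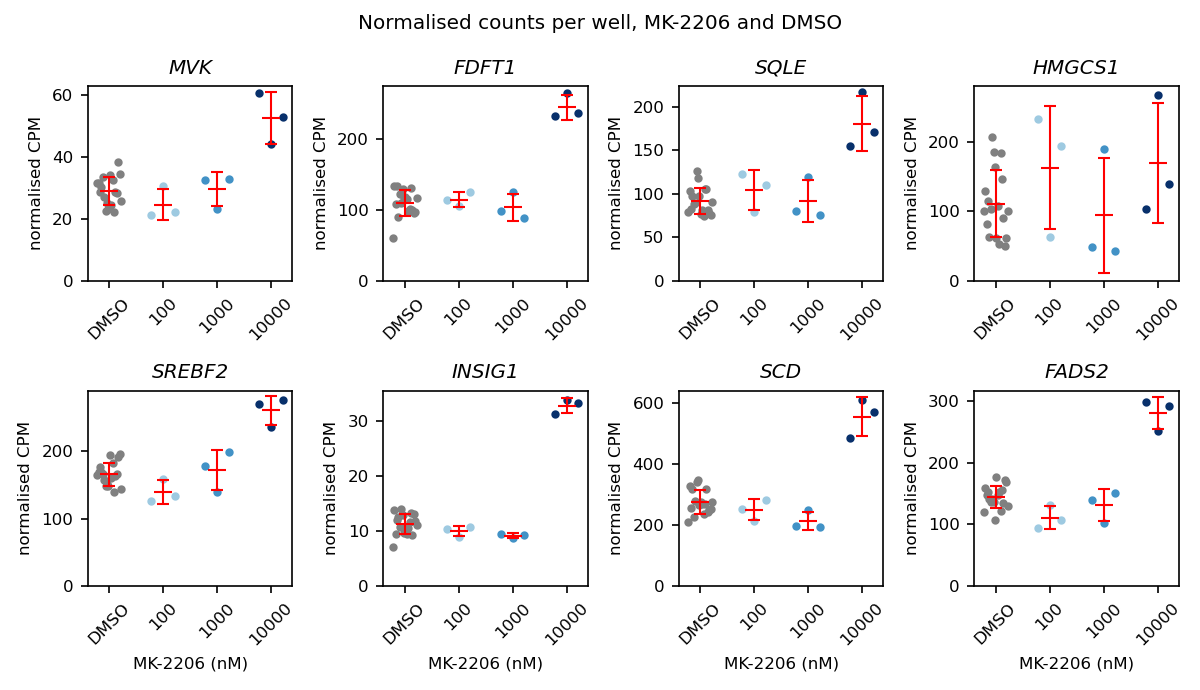
Each panel shows the normalised CPM of 1 gene in every well of DMSO (n = 18) and of MK-2206 at 100, 1000 and 10000 nM (n = 3 each), with red bars for the mean and its SD. In all panels but HMGCS1 the 3 wells at 10000 nM lie above all DMSO wells, and the wells at 100 and 1000 nM lie among or near them.

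At the lower doses of MK-2206 no member was called by edgeR with TMM scaling and no covariate. With library sizes only, edgeR called 1 member at 1000 nM, beside 85 genes lower and 164 higher among 18462. At 100 nM, 0 of 31 members were called by edgeR and 0 by DESeq2. The shares of all genes called by edgeR were 0.00541% lower and 0.0866% higher. There were 4 members at an unadjusted p under 0.05, a threshold not counted over all genes. The smallest adjusted p was 0.329 (FADS2, -0.40). At 1000 nM edgeR called 0 of 31, beside 0.374% of all genes lower and 1.07% higher. There were 7 members at an unadjusted p under 0.05, again not counted over all genes. DESeq2 called 2 members at 1000 nM, with 181 lower and 334 higher among 17016 genes. With the GC slope of the library as a covariate, edgeR also called some members at 1000 nM, as counted in the last section. That fit called 2.43% of all genes lower and 3.37% higher. INSIG1 was at 10.4, 8.89 and 10.7 CPM at 100 nM and at 9.47, 8.63 and 9.28 CPM at 1000 nM, inside the full vehicle range at both doses (at 1000 nM -0.33, 95% interval -0.58 to -0.08, adjusted p = 0.284). The lower end of that range is the shallow DMSO replicate 10. The 17 deeper DMSO wells began at 9.20 CPM, and 1 well at each dose lay below them. SCD was at 198, 248 and 192 CPM at 1000 nM (-0.39, 95% interval -0.62 to -0.17), which overlapped the lowest DMSO wells and had the smallest adjusted p among the members (0.108). The median over the members was -0.10 at 100 nM and -0.12 at 1000 nM, against 0.61 at 10000 nM.

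The wells at 10000 nM were also compared with those at 1000 nM, in a fit that held the DMSO wells for the estimate of spread. Here 9 members were higher and 0 lower at 10000 nM, beside 0.113% of all genes higher and 0% lower, and the members' median was 0.63 beside -0.01 over all genes. The 9 were INSIG1 (1.84, adjusted p = 3.48e-07), SCD (1.38), FDFT1 (1.23), HSD17B7 (1.14), FADS2 (1.09), SQLE (0.97), LPIN1 (0.92), DHCR7 (0.89) and FADS1 (0.61). With only the 6 wells of both doses in the fit, 1 member, INSIG1, was called. SREBF2 differed by 0.59 (adjusted p = 0.214) between these doses. A straight line over log10 dose through the 9 MK-2206 wells called 0 of 31 members by edgeR. The shares of all genes called were 0% lower and 0.0286% higher. There were 20 members at an unadjusted p under 0.05, a threshold not counted over all genes. DESeq2 called 8 members in that trend, with 46 lower and 113 higher among 17458 genes. With the GC slope of the library as a covariate, edgeR called 23 members higher, beside 4.35% of all genes lower and 3.79% higher. In the edgeR trend without the covariate FADS2 had the smallest adjusted p of the members (0.116), with a slope of 0.68 log2 units for each 10-fold rise in dose.

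MK-2206 at 10000 nM was then set against miglitol, nilotinib and pyrazolanthrone at the same dose. Against miglitol 15 members were higher and 0 lower, beside 1.8% of all genes higher and 0.456% lower, with a median over members of 0.60. Against nilotinib 16 were higher and 0 lower, beside 1.79% higher and 3.06% lower, with a median of 0.55. Against pyrazolanthrone 17 were higher and 0 lower, beside 1.77% higher and 0.916% lower, with a median of 0.83. These comparisons share the MK-2206 wells with each other and with the comparison with DMSO.

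In all 4 comparisons at 10000 nM, 11 members were called higher: MVK, MVD, FDFT1, NSDHL, HSD17B7, DHCR7, SREBF2, INSIG1, FASN, SCD and FADS2. For INSIG1 the log2 fold change was 1.36 against miglitol, 1.04 against nilotinib and 1.53 against pyrazolanthrone. For FDFT1 the values were 1.07, 0.91 and 1.06 in the same order, and for FADS2 they were 1.19, 1.0 and 1.15. DHCR7 ranged more widely, with 1.03, 0.67 and 1.37. LPIN1 was called against miglitol (0.70) and pyrazolanthrone (0.98) but had 0.28 against nilotinib (adjusted p = 0.122), and SQLE was called against the same compounds (0.68 and 0.92) with 0.49 against nilotinib. CYP51A1 and MSMO1 were called against DMSO only; CYP51A1 had 0.41 against miglitol and 0.18 against nilotinib (adjusted p = 0.611). LSS was called against all 3 compounds (0.53, 0.67 and 0.97) and not against DMSO. Whether the differences between these references exceed their error was not tested.

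At 1000 nM none of the 31 members was called by edgeR against miglitol, nilotinib or pyrazolanthrone. The shares of all genes called were 0.0216% higher and 0% lower against miglitol and 0.0108% higher and 0.0108% lower against nilotinib. Against pyrazolanthrone they were 0.054% higher and 0.0108% lower. At an unadjusted p under 0.05 there were 1, 3 and 0 members in the same order. That threshold was not counted over all genes, so these counts have no share to be read against.

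**Figure D3:**
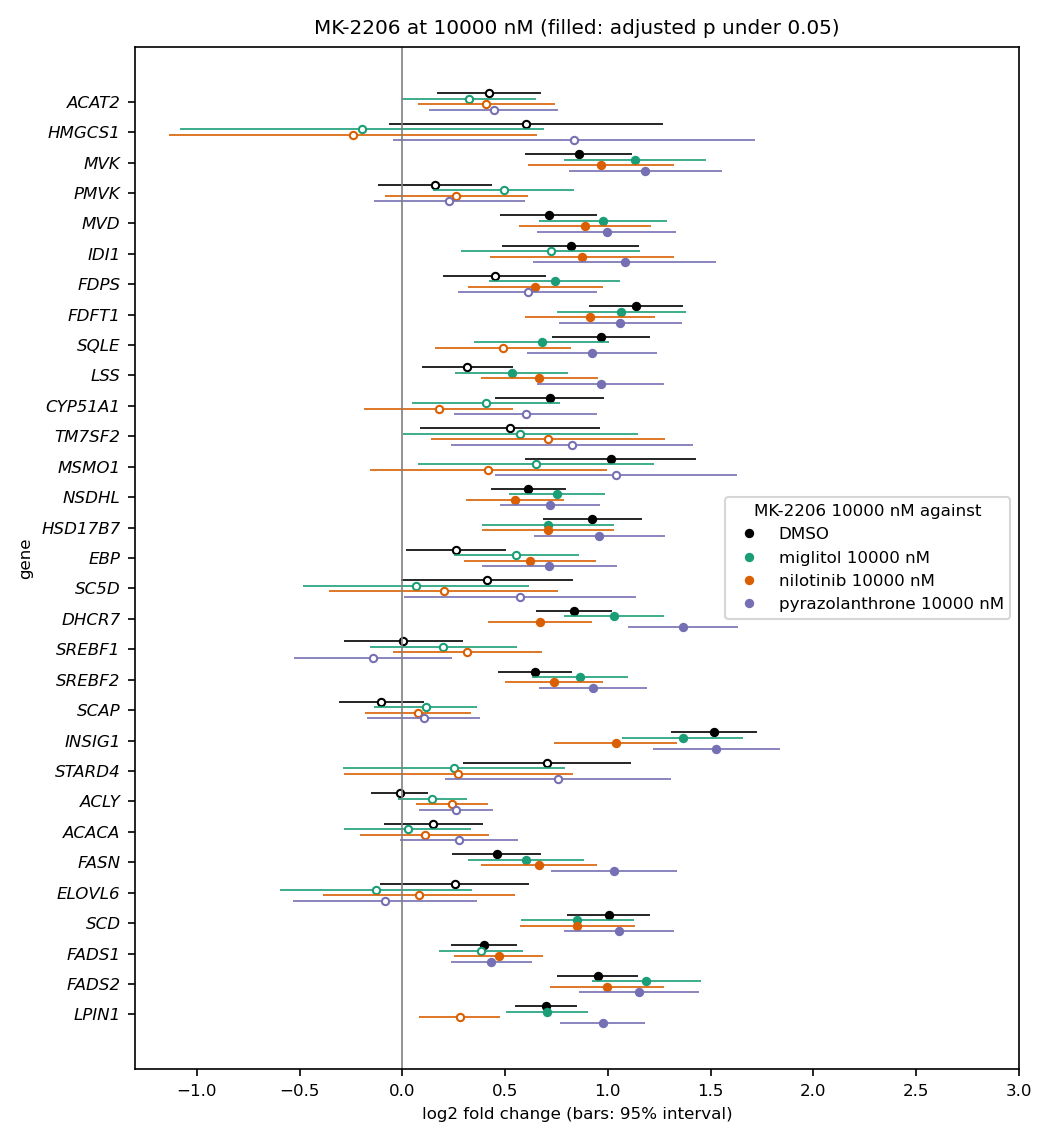
Log2 fold change of each member at 10000 nM MK-2206 against DMSO and against miglitol, nilotinib and pyrazolanthrone at the same dose, with 95% intervals and filled points where the adjusted p was under 0.05. INSIG1, FDFT1, SCD, FADS2, DHCR7, MVK and SREBF2 are filled and right of 0 for every reference, while SREBF1, SCAP, ACLY, ACACA and ELOVL6 sit near 0.

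Some members varied with the GC slope of the library. HMGCS1, whose transcripts have 43.5% GC, had a coefficient of variation of 44.7% over the 17 DMSO wells above 10000000 counts, the highest of the members, beside 33.5% for MSMO1, 32.0% for STARD4 and 5.68% for LPIN1. In the DMSO well with the lowest slope (-0.41) it was at 206.5 CPM and in the well with the highest (0.33) at 52.5 CPM. In the MK-2206 wells at 10000 nM it was at 267 CPM with a slope of -0.17, at 139 CPM with 0.11 and at 103 CPM with 0.27. The DMSO wells nearest in slope had 164, 62.8 and 61.9 CPM, below the treated well each time. INSIG1 (49.8% GC) ran only from 7.02 to 13.9 CPM over the DMSO wells and showed no such course.

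With the GC slope as a covariate, an alternative chosen after the data had been seen for all but the MK-2206 comparisons with DMSO, 24 of 31 members were called higher at 10000 nM MK-2206 and 0 lower, and HMGCS1 was among them (0.74, adjusted p = 1.08e-05). All-gene calls in that fit were 1018 higher and 1051 lower, more than the 410 and 179 without the covariate. The slopes of the MK-2206 wells at 10000 nM (-0.17 to 0.27) lay within the DMSO range. Those of miglitol (-0.35 to -0.23), nilotinib (-0.27 to -0.03) and pyrazolanthrone (-0.28 to -0.07) at 10000 nM were all below 0, and their part in the direct comparisons was tested only by the covariate, with which FDFT1, FADS2, SREBF2, INSIG1 and SCD were still called against each of the 3 compounds. Of the 11 members called in all 4 comparisons, FASN lost its call against miglitol with the covariate (0.42, adjusted p = 0.0604). CYP51A1 was then called against all 3 compounds (0.77 for miglitol, 0.41 for nilotinib and 0.84 for pyrazolanthrone), and MSMO1 against miglitol (1.05, adjusted p = 0.0138) and pyrazolanthrone (1.32, adjusted p = 0.00107).

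**Figure D4:**
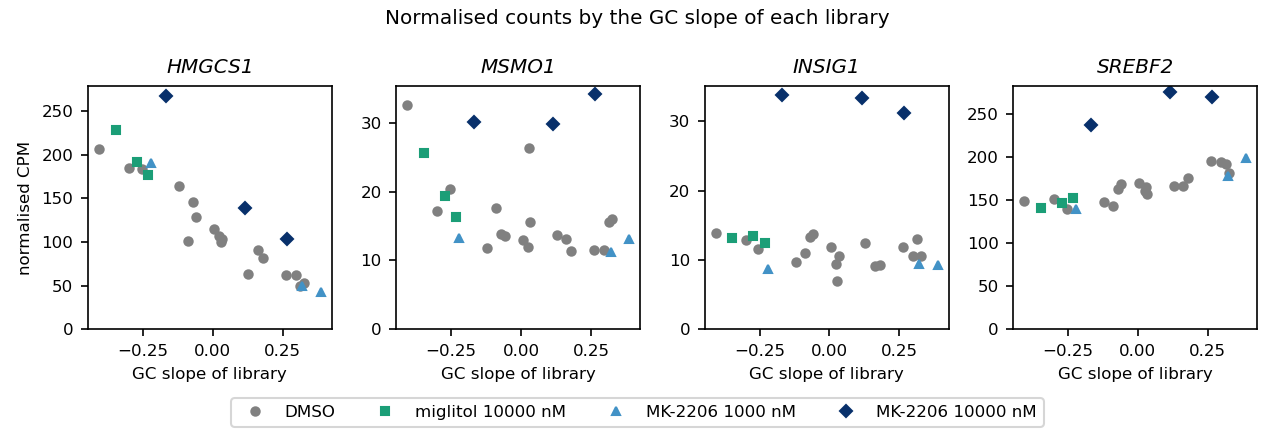
Normalised CPM of HMGCS1, MSMO1, INSIG1 and SREBF2 in single wells against the GC slope of the library (change in log2(CPM + 1) per 10 percentage points of GC) for DMSO, miglitol 10000 nM and MK-2206 1000 and 10000 nM. HMGCS1 falls from 206.5 to near 50 CPM along the slope in DMSO, whereas INSIG1 stays between 7.02 and 13.9 CPM and its 3 wells at 10000 nM MK-2206 stand at 31.2 to 33.8 CPM.

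Genes of related lists outside the 31 were read against the same shares of all genes, 2.21% called higher and 0.966% called lower at 10000 nM MK-2206. Of 13 other sterol genes, 2 were higher and 0 lower, with a median of 0.05, among them ERG28, a scaffold of sterol enzymes (0.52, adjusted p = 0.0157). Of 18 other genes of fatty acid and glycerolipid synthesis, 1 was higher and 0 lower, LPIN2 (0.33, adjusted p = 0.00108), with a median of 0.04. None of 6 genes of the LXR group, which holds the sterol-sensing LXR receptors and some of their targets, was called by edgeR, with 3 at an unadjusted p under 0.05 and a median of -0.0043, and none of 8 tested genes of fatty acid oxidation, with 0 under 0.05 unadjusted and a median of -0.02. Of 8 tested genes tied to AKT and FOXO signalling, 2 were higher and 1 lower. PIK3IP1, a negative regulator of PI3K, was at 14.9, 13.6 and 15.8 CPM beside 1.76 to 6.62 CPM in DMSO (1.66, adjusted p = 1.99e-07), BCL6, a transcriptional repressor, rose by 0.50 (adjusted p = 0.00191), and ERBB3, a receptor of the EGFR family, fell by 0.55 (adjusted p = 0.0324).

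Of the marker lists, 1 of 7 tested bone lineage genes was called at 10000 nM MK-2206, RUNX2 (0.71, adjusted p = 0.000487), and 1 of the other cell markers, CDH5, an endothelial cadherin (2.21, adjusted p = 0.000109; at 1000 nM 1.74, adjusted p = 0.00454). CDH5 was at 0.836 to 0.962 CPM at 10000 nM and at 0 to 0.528 CPM in DMSO, so it was near 0 throughout.

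With homoharringtonine members were called in both directions, as were large shares of all genes. At 100 nM 13 members were lower and 6 higher, beside 32.5% of all genes lower and 31.3% higher. At 1000 nM 15 were lower and 12 higher (33.6% and 35.1% of all genes), and at 10000 nM 15 were lower and 8 higher (37.3% and 37%). The members' medians were -0.08, 0.05 and -0.15 over the rising doses, beside -0.03, -0.01 and -0.04 over all genes.

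HMGCS1, IDI1, FDFT1 and LPIN1 rose with homoharringtonine at every dose. HMGCS1 was at 527, 507 and 579 CPM at 10000 nM, above its DMSO maximum of 206.5 CPM (2.25, SE 0.28, adjusted p = 1.52e-07). The GC slopes of these wells were -0.60 to -0.45, and with the slope as a covariate the change was 0.89 (adjusted p = 1.04e-05). All 3 slopes lay below the DMSO range of -0.41 to 0.33, so values with the covariate at this dose rest on extrapolation. The slope is also computed from the counts of each library, which the compound changed, so slope and compound cannot be told apart here. LPIN1 was at 216.5, 219 and 215 CPM beside at most 60.1 CPM in DMSO (1.97, SE 0.06, adjusted p = 3.85e-18), with 1.98 under the covariate. TM7SF2 had 3.19, 3.55 and 3.34 CPM at 100 nM, within its DMSO range of 1.62 to 3.93 CPM, then 15.6, 12.6 and 10.1 CPM at 1000 nM and 19.1, 19.6 and 16.5 CPM at 10000 nM (2.88, SE 0.17, adjusted p = 2.07e-13). INSIG1 went the other way with dose: 44.1, 38.2 and 39.7 CPM at 100 nM (1.84), 29.7, 29.0 and 33.1 CPM at 1000 nM (1.42) and 13.3, 12.9 and 12.3 CPM at 10000 nM (0.15, adjusted p = 0.26), where it overlapped the vehicle wells.

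Fatty acid genes other than LPIN1 mostly fell with homoharringtonine: at each dose 6 of the 8 were lower. ELOVL6 was at 7.26, 6.85 and 8.73 CPM at 10000 nM beside 20.0 to 40.6 CPM in DMSO, with log2 fold changes of -1.67, -2.14 and -1.96 over the rising doses. SCD was at 90.5, 89.4 and 93.2 CPM at 10000 nM beside at least 209 CPM in DMSO (-1.63, SE 0.12, adjusted p = 1.72e-11). Both were below every vehicle well. Over the 9 homoharringtonine wells, 7 members fell and 4 rose with dose, beside 23% of all genes falling and 21.2% rising. INSIG1 fell by 0.86 for each 10-fold rise in dose, and TM7SF2 (1.18), HSD17B7 (0.71), SREBF1 (0.61) and STARD4 (0.46) rose.

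The largest falls of any member against DMSO were with triptolide. At 100 nM 11 members were lower and 8 higher, beside 32.4% of all genes lower and 24.4% higher. At 1000 nM 10 were lower and 13 higher (38.7% and 28.8% of all genes), and at 10000 nM 10 were lower and 14 higher (39.7% and 32.4%). SQLE was at 6.16, 6.04 and 3.85 CPM at 10000 nM beside at least 74.8 CPM in DMSO (-4.14, SE 0.20, adjusted p = 1.57e-15). MVK was at 2.14, 1.53 and 2.06 CPM beside at least 22.2 CPM (-3.96, SE 0.21, adjusted p = 1.44e-14). HSD17B7 was at 0.794, 0.728 and 1.15 CPM beside a DMSO median of 7.12 CPM (-3.03, SE 0.20, adjusted p = 9.15e-13). All 3 genes lay below every vehicle well at this dose, and INSIG1 also fell (-1.99).

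The rises under triptolide depend on the scaling. SREBF2 was at 431, 429 and 479.6 CPM at 10000 nM beside at most 195 CPM in DMSO, a log2 fold change of 1.38 with TMM, but it was -1.43 when libraries were scaled to the 13 mitochondrial mRNAs, with which 30, 31 and 31 members were called lower and 0 higher over the rising doses. On that scaling the median over all genes tested was -2.92 at 10000 nM, beside -0.16 with TMM, and SQLE, MVK and HSD17B7 fell as well. Mitochondrial mRNAs took 0.521% to 1.15% of counts in triptolide wells beside 0.138% to 0.367% in DMSO wells. At 100 nM, SQLE was at 23.8, 0 and 23.9 CPM, where the 0 belongs to the library of 70414 counts. Across the 9 triptolide wells 7 members fell and 6 rose with dose by the TMM scaling, beside 18% of all genes falling and 6.67% rising, among them SQLE, which fell by 1.08, and IDI1, which fell by 1.06 for each 10-fold rise in dose.

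**Figure D5:**
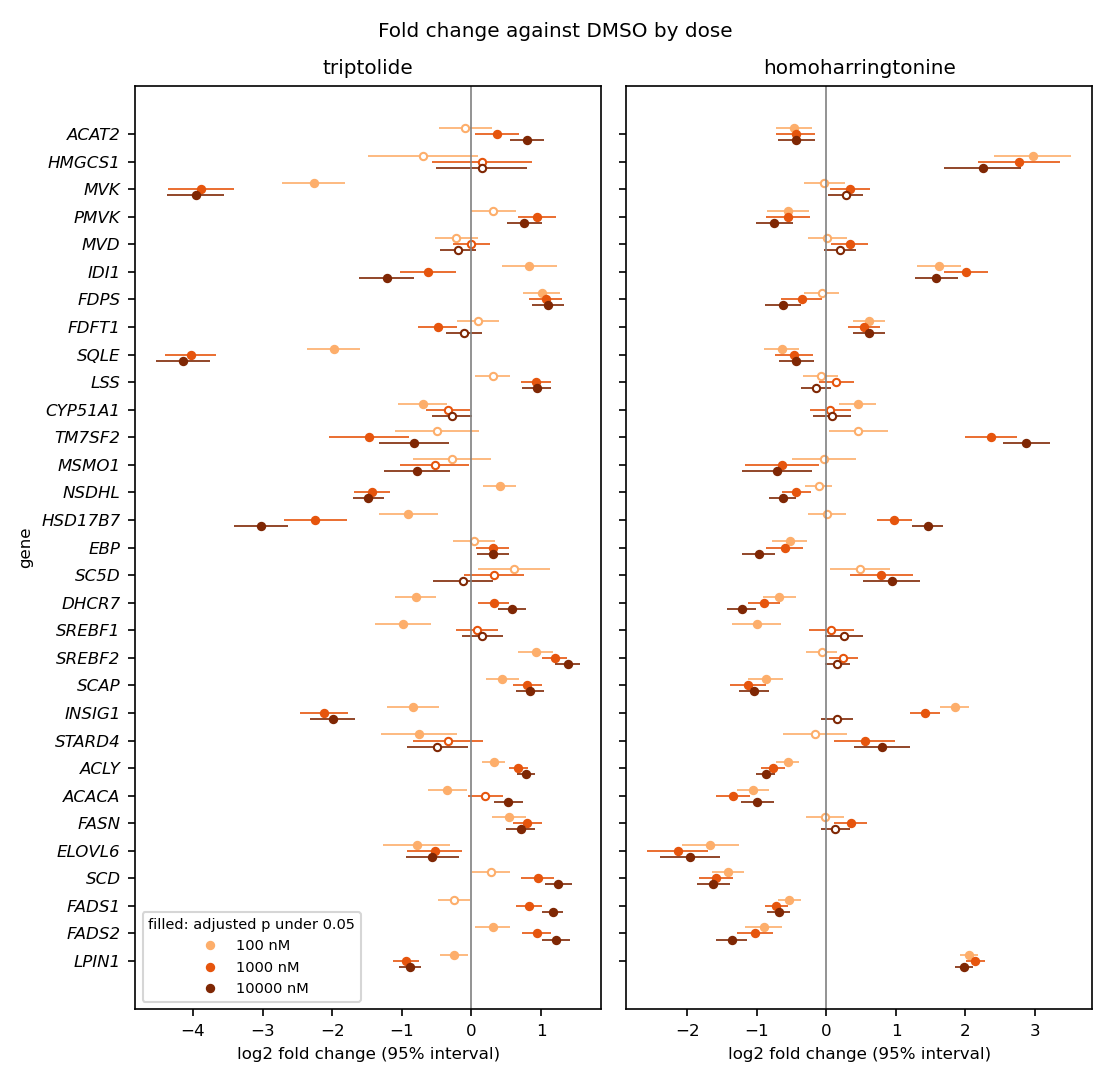
Log2 fold change of each member against DMSO, with 95% intervals, at 100, 1000 and 10000 nM triptolide (left) and homoharringtonine (right), filled where the adjusted p was under 0.05. MVK, SQLE and HSD17B7 reach -3.96, -4.14 and -3.03 with triptolide, and HMGCS1, LPIN1 and TM7SF2 exceed 1.9 with homoharringtonine at 10000 nM, where INSIG1 has returned to 0.15.

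With pyrazolanthrone the members that were called were lower. At 100 nM 3 were lower and 0 higher (1.58% and 3.25% of all genes), and at 10000 nM 6 were lower and 0 higher (4.47% and 3.29%). At 1000 nM 0 were called by edgeR (0% and 0% of all genes) and 0 by DESeq2. There were 2 members at an unadjusted p under 0.05 at 1000 nM. At 10000 nM LSS was at 79.1, 84.3 and 88.7 CPM, just below the DMSO range of 89.5 to 151.5 CPM (-0.64, SE 0.12, adjusted p = 0.00186). DHCR7 was at 57.6, 62.1 and 67.5 CPM, below its lowest DMSO well (-0.52, SE 0.11, adjusted p = 0.0039), and FASN was at 486, 548 and 557 CPM, which overlapped it (-0.56, SE 0.12, adjusted p = 0.00575). The 6 calls became 1, 2 and 3 without replicate 1, 2 and 3 at this dose. LSS was called each time, while DHCR7 was not called without replicate 1 (adjusted p = 0.0572) or 2 (0.0645), nor FASN without replicate 1 (0.0627). Over the 9 wells 3 members fell with dose (LSS, ACLY and FASN) and 1 rose (ACAT2), beside 10.3% of all genes falling and 9.61% rising, and with the GC slope as a covariate none of these 4 was called (adjusted p between 0.194 and 0.388).

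With nilotinib INSIG1 was lower than in DMSO at the low doses and higher at 10000 nM, though some of these calls were lost when 1 well was left out. At 100 nM 6 members were lower and 0 higher (3.6% and 5.57% of all genes), at 1000 nM 3 were lower and 0 higher (1.73% and 2.42%), and at 10000 nM 2 were lower and 4 higher (6.43% and 8.04%). INSIG1 was at 7.02, 8.41 and 8.14 CPM at 100 nM (-0.54, adjusted p = 0.0121) and at 8.65, 7.93 and 8.34 CPM at 1000 nM (-0.47, adjusted p = 0.0337), below every DMSO well above 10000000 counts. At 10000 nM it was at 15.4, 17.7 and 14.4 CPM, above every DMSO well (0.48, SE 0.12, adjusted p = 0.00631), and the trend over the 9 wells was 0.50 for each 10-fold rise in dose (adjusted p = 0.0329). The other members higher at 10000 nM were CYP51A1 (0.54; 86.6, 87.2 and 69.0 CPM, which overlapped the vehicle wells), SQLE (0.48; 137, 133 and 113 CPM) and LPIN1 (0.43). LSS (-0.35) and ACLY (-0.25) were lower. The 6 calls at 10000 nM became 2 without replicate 1 of that dose and 1 without replicate 2. Without replicate 2 INSIG1 (0.39, adjusted p = 0.107), CYP51A1 (adjusted p = 0.0871) and SQLE (adjusted p = 0.068) were not called. At 100 and 1000 nM the call of INSIG1 was lost whichever well was left out (adjusted p between 0.0543 and 0.189). Over dose 2 members rose, INSIG1 and SCD (0.31), and 0 fell, beside 1.98% of all genes rising and 0.965% falling, and 0 members were called in the trend without replicate 2 or without replicate 3.

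Miglitol called no member against DMSO at any dose by edgeR or DESeq2. By edgeR 0% of all genes were called lower and 0% higher at each dose. The number of members with an unadjusted p under 0.05 was 1 at 100 nM, 2 at 1000 nM and 13 at 10000 nM. All genes were not counted at that threshold, and the smallest adjusted p of the members at 10000 nM was 0.216. HMGCS1 was at 191, 228 and 177 CPM at 10000 nM, in the upper part of its DMSO range (0.80, 95% interval 0.18 to 1.42), in wells whose GC slopes were -0.35 to -0.23. With the slope as a covariate its change was 0.04 (adjusted p = 1). The trend over the 9 miglitol wells called 3 members higher with dose (HMGCS1 0.61, STARD4 0.43 and SQLE 0.22) and 1 lower (FDPS -0.24), beside 13.4% of all genes rising and 3.58% falling, and with the covariate none of the 4 was called (adjusted p between 0.46 and 0.664).

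The mean profile of the 18 mevalonate and later sterol genes over the 13 groups of DMSO, miglitol, pyrazolanthrone, nilotinib and MK-2206 stood at 0.63 (centred log2 CPM) in MK-2206 at 10000 nM and between -0.13 and 0.09 in the other 12. Among 9460 genes outside the lists with at least 10 CPM in DMSO, those with the most similar profile by Pearson's r over the 13 group means, which share libraries and GC slopes, were ANKRD10 (0.92), CLCN6 (0.897), WASHC2A (0.892), RNFT2 (0.862), MRNIP (0.859), ZMYND8 (0.855), APLP2 (0.854), FLCN (0.848), SH3PXD2B (0.848) and NID1 (0.847). FLCN, folliculin, was at 45.9 ± 4.70 CPM in DMSO (SD, n = 18) and 76.2 ± 5.91 CPM at 10000 nM MK-2206 (SD, n = 3). These genes were selected for likeness to a profile that is highest in that group, so the rise of FLCN there follows from the selection.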

How the data were processed

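RNA-seq of 72 wells of U2OS cells was analysed from 1 table per well. The authors' deposited tables hold RSEM expected counts per gene, which were rounded to whole numbers here, and TPM (set by the authors from length and depth), which were used only to rank members in DMSO wells. The submitters' processing notes name RSEM, HTSeq, DESeq2 and build GRCh38; versions and how strand was counted are not given in the sources used here. RSEM splits reads between near-identical copies, so levels of members with pseudogene copies are less certain. The 92 rows of spike-in RNA, which name no human gene, held 0.0158% to 1.12% of the counts of a well and were left out of library sizes and tests.

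Counts were analysed in R 4.3.3 with edgeR 4.0.16: filterByExpr (minimum count 10), TMM, the quasi-likelihood test and Benjamini-Hochberg adjustment over all genes tested, called under 0.05. Each compound and dose was compared with all 18 DMSO wells, dose trends were fitted on log10 dose in the 9 wells of a compound, and direct comparisons of MK-2206 kept the DMSO wells for the spread. Coordinates are from GENCODE on GRCh38, 93.1% of genes in the files had a transcript GC content, and GC slopes used genes with at least 5 CPM. Alternatives were DESeq2 1.42.0, other scalings and filters, left-out wells, a replicate block and the GC slope as a covariate. The comparison of the MK-2206 doses with each other, and the covariate outside the MK-2206 comparisons with DMSO, were added after the data had been seen. The members and lists were chosen with earlier results of these data known. All members could be named; for compounds other than MK-2206 the text gives the 3 called at 10000 nM with the largest change and members picked after their values were seen, and of other lists those called with MK-2206 at 1000 or 10000 nM, plus the 10 genes most similar in profile. Some genes of the pathway are not reported here.

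On counts simulated for 15657 genes of the MK-2206 10000 nM comparison with DMSO, of which 200 were changed by 1 on the log2 scale, edgeR recovered 162 with 5 false calls, DESeq2 169 with 35, and the replicate block 0 (15656 genes). For the MK-2206 dose trend the change was 1 for each 10-fold rise in dose, so it was larger over the whole dose range than in the other simulations. There 186 were recovered with 14 false calls, which cannot be set beside the other counts. For MK-2206 against miglitol at 10000 nM 127 were recovered with 6 false calls. Simulated wells were drawn independently and held no differences in GC slope. Treated wells did not deviate together with the same-numbered DMSO wells. The mean correlation of their deviations was -0.05 (range -0.865 to 0.861), and in 0 groups was every pair over 0.1. Numbers were therefore not treated as pairs. Whether numbers pair the wells of treated groups with each other was not examined. The GC slopes of replicates 1, 2 and 3 were 0.27, -0.17 and 0.11 at 10000 nM MK-2206 and 0.32, -0.22 and 0.39 at 1000 nM.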

Additional observations from a re-analysis of the deposited data

Results flagged for a closer look

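Changes of 9 members differed between the 1000 and 10000 nM doses of MK-2206 by a test of the difference itself, which was chosen after the data had been seen and shares its wells with the comparisons with DMSO. The log2 fold change of 10000 against 1000 nM was 1.84 for INSIG1, 1.38 for SCD, 1.23 for FDFT1, 1.14 for HSD17B7, 1.09 for FADS2, 0.97 for SQLE, 0.92 for LPIN1, 0.89 for DHCR7 and 0.61 for FADS1. With the 6 wells of both doses alone 1 of the 31 members was called, INSIG1. The GC slopes of the 1000 nM wells ran from -0.22 to 0.39 and those of the 10000 nM wells from -0.17 to 0.27, and with the slope as a covariate 22 members were called, beside 0.499% of all genes lower and 0.741% higher in that fit.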

How the results depend on the processing

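The rises with triptolide reversed when libraries were scaled to mitochondrial mRNAs: SREBF2 at 10000 nM went from 1.38 to -1.43, and of the 8, 13 and 14 members called higher at the rising doses 7, 13 and 14 were called lower. Of 1034 alternative values for single named genes, 916 kept direction and call, 117 lost the call and 1 reversed, and 219 of 280 counts of called members stayed within 1.5 times. A count of 0 in both fits was taken as unchanged and is among the 219. The 17 members called at 10000 nM MK-2206 against DMSO became 20 with DESeq2, 19 with DESeq2 size factors in edgeR, 19 with library sizes only, 18 without libraries under 10000000 counts, 24 with the GC slope and 15 to 17 with 1 MK-2206 well left out. The counts below moved by more than 1.5 times in at least 1 fit, with some exceptions, and the cause was not tested. Exceptions within 1.5 times were the replicate block for MK-2206 at 10000 nM against DMSO and some left-out wells. Those were left-out wells of triptolide at 100 nM and of MK-2206 at 10000 nM against miglitol, nilotinib, pyrazolanthrone and its own 1000 nM wells. Calls over all genes moved as well, so a count printed without them is no result about the members. With DESeq2 the count was 5 for nilotinib at 1000 nM, 2 for MK-2206 at 1000 nM, and for trends 8 (pyrazolanthrone), 9 (nilotinib), 10 (miglitol) and 8 (MK-2206). Of all genes DESeq2 called 578 lower and 578 higher of 18444 for nilotinib at 1000 nM. In trends it called 2558 and 2407 of 16203 (pyrazolanthrone), 1465 and 838 of 16618 (nilotinib) and 2053 and 2937 of 15367 (miglitol). With the GC slope the count was 8 for pyrazolanthrone at 100 nM, 13 and 9 for nilotinib at 100 and 1000 nM, 5 for MK-2206 at 1000 nM, 1 for MK-2206 against nilotinib at 1000 nM, 22 for MK-2206 at 10000 against 1000 nM, and for trends 21 (homoharringtonine), 0 (pyrazolanthrone), 10 (nilotinib), 0 (miglitol) and 23 (MK-2206). Shares of all genes lower and higher in those fits were 4.61% and 7.84% for pyrazolanthrone at 100 nM. For nilotinib they were 8.88% and 10.4% at 100 nM and 6.01% and 6.99% at 1000 nM. They were 2.43% and 3.37% for MK-2206 at 1000 nM and 0.248% and 0.253% for MK-2206 against nilotinib. Trends had 28.3% and 24.4% (homoharringtonine), 0.737% and 0.476% (pyrazolanthrone), 5.75% and 6.9% (nilotinib), 0% and 0% (miglitol) and 4.35% and 3.79% (MK-2206). Nilotinib at 1000 nM gave 5 with library sizes only and 5 without libraries under 10000000 counts. Triptolide at 100 nM gave 30 when scaled to mitochondrial mRNAs and 6 with at least 10 counts in every well, and MK-2206 at 1000 nM gave 1 with library sizes only. Without a filter the counts were 1 and 3 for pyrazolanthrone at 100 and 10000 nM and 3 for nilotinib at 100 nM. In the 6 wells alone MK-2206 at 10000 against 1000 nM gave 1. The replicate block was run though numbers did not pair treated wells with DMSO wells. Pairing between treated groups was not examined. For pyrazolanthrone it gave 0 at 100 nM and 13 at 10000 nM, where 2764 genes were lower and 3372 higher of 17619. For nilotinib it gave 0, 0 and 12 at the rising doses, with 2568 lower and 3090 higher of 17946 genes at 10000 nM. For miglitol at 10000 nM it gave 20, in a fit that called 3666 lower and 4529 higher of 17973 genes. It gave 9 for the nilotinib trend (1203 lower and 1146 higher of 18196 genes). For MK-2206 it gave 9 against nilotinib at 10000 nM (369 lower and 124 higher of 18168 genes) and 17 at 10000 against 1000 nM (11 and 80 of 17894). Against DMSO at 10000 nM MK-2206 the block gave 19 (125 and 314 of 17650), without FASN (0.35, adjusted p = 0.136) and FADS1 (0.42, adjusted p = 0.121). With 1 well left out, counts ranged from 13 to 20 for triptolide at 100 nM, 0 to 3 and 1 to 3 for pyrazolanthrone at 100 and 10000 nM, 1 to 8, 0 to 5 and 1 to 6 for nilotinib at the rising doses, 10 to 15, 11 to 16 and 16 to 17 for MK-2206 against miglitol, nilotinib and pyrazolanthrone at 10000 nM, 6 to 9 for MK-2206 at 10000 against 1000 nM, and for trends with 1 replicate number left out 5 to 7 (triptolide), 4 to 11 (homoharringtonine), 0 to 8 (pyrazolanthrone), 0 to 5 (nilotinib) and 0 to 0 (miglitol). Depth limits the values of DMSO replicate 10 and triptolide 100 nM replicate 2 most.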
